A study of Caenorhabditis elegans with 58 samples.

Results

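Double AEDH embryos of the nematode Caenorhabditis elegans were compared with wild-type embryos by small RNA sequencing. The comparison took all 8 libraries that the labels place in experiment 1 as mixed embryos, 4 per genotype, out of 58 libraries in the series, and every annotated miRNA arm in them. The double AEDH strain, MCJ275, carries alg-2(cdb155) on chromosome II and alg-1(cdb153) on chromosome X, 2 genome edits that replace the first residue of the catalytic tetrad DEDH by alanine in both main miRNA Argonautes. The wild type was strain N2. Both groups were whole hermaphrodite cultures kept at 20 °C, and embryos were freed with hypochlorite, so each library is a mixture of embryonic ages and cell types. In such bulk samples fewer cells of a type and less RNA per cell cannot be told apart. The double mutant is a single strain. Nothing in the labels ties the replicates of a genotype to different cultures, and a p-value here therefore reflects library-to-library spread, of which part may be technical. Beside them stand double AEDH and wild-type young adults (4 libraries each, 44 h at 25 °C from hatched L1 larvae) and L4 larvae (3 each, 48 h at 20 °C) of the same strains and experiment. Experiment 3 adds mixed embryos with AEDH in one Argonaute, alg-2(cdb155) in strain MCJ288 and alg-1(cdb153) in strain MCJ277, and N2 embryos (4 libraries each). The series was made to ask what the slicing residues of the Argonautes do for miRNAs and their star strands.

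A miRNA hairpin is cut into a duplex of 2 short strands. The Argonaute keeps the guide strand, which pairs with target mRNAs, and the star strand is normally discarded and degraded. Argonautes with an intact DEDH tetrad can cut a fully paired strand, and in several animals this cut helps to remove the star strand from some duplexes.

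The libraries held 11482000 to 15561293 miRNA counts each, over 276 arms of 138 hairpins. Levels are given as CPM, counts scaled to a common library total of miRNA counts with TMM factors, and star arms carry an asterisk. The embryo label was checked against the mir-35 family (mir-35 to mir-42), which is expressed in embryos and needed for embryonic development. Its 8 guides made up 50.7% ± 2.66 of all miRNA counts in double AEDH embryos and 50.4% ± 1.62 in wild-type embryos (SD, n = 4 each). The 6 guides listed as larval and adult markers summed to 254 to 478 CPM in double AEDH embryos and 288 to 696 CPM in wild-type embryos, and none of the 6 passed the arm test. All 6 had log2 fold changes below 0 (median -0.37), and 1, mir-241_5p, fell in the fit with replicate pairs as a block. Replicate 2 stood apart in both genotypes. There lin-4 and mir-237, related miRNAs that time larval development, summed to 153 CPM in the double AEDH library and 266 CPM in the wild-type library, against 16.3 to 25.1 CPM in the other double AEDH libraries and 20.7 to 26.7 CPM in the other wild-type libraries. The part of this in the results was not tested. Below, counts without replicate 2 of both genotypes are given for the fit with the block only.

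Of the 17 arms that rose in double AEDH embryos 16 were star arms, and most guide arms did not pass the test in either direction. Of 212 arms tested, 24 passed (11.3%; edgeR quasi-likelihood test, adjusted p under 0.05). The count was 14 and 15 when replicate 3 and replicate 4 of double AEDH embryos were left out and 12 without replicate 3 of wild-type embryos. The 24 were 16 star arms, all higher in double AEDH embryos, and 8 guide arms, of which 7 were lower and mir-788_3p was higher. The 17 higher arms were 8.02% of those tested and the 7 lower arms 3.30%. All 24 had groups that did not overlap, which fixes the direction of all 4 replicate pairs as well. The 24 were picked by a test on these same libraries, so neither property is added support. Groups without overlap were found for 20 arms with higher values in double AEDH embryos (9.43% of arms tested), 18 of them star arms, and for 11 arms with lower values (5.19%), all guides. The median log2 fold change was 0.44 over the 85 star arms tested and -0.08 over the 127 guide arms, beside -0.02 over all arms. With spike-in totals as library sizes the median over all arms was -0.24, and 11 arms were called higher and 1 lower, and with TMM factors from guide arms 16 were called higher and 2 lower.

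**Figure D1:**
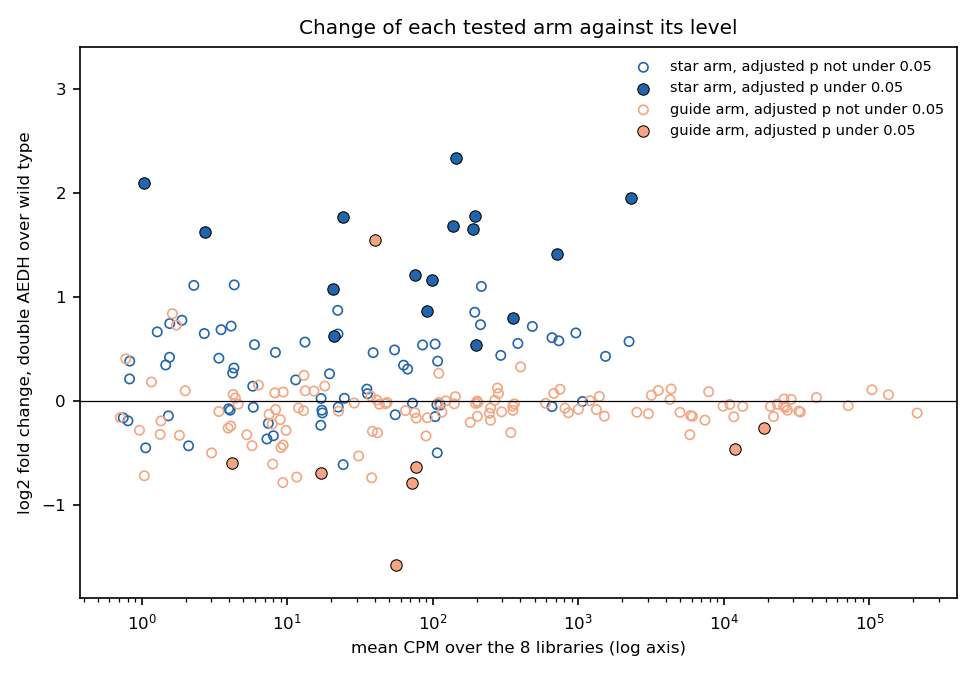
Log2 fold change of double AEDH over wild-type embryos (vertical axis) against the mean CPM over the 8 libraries (horizontal log axis), with 1 point for each of the 212 arms tested. Filled points passed the edgeR test. Of the filled points, 16 star arms and the guide mir-788_3p lie above 0, and 7 guides lie below 0.

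The replicate numbers paired the libraries, and a fit that keeps the pairs as a block called more arms. With the replicate block 62 arms passed (29.2%), 44 higher (20.8%) and 18 lower (8.49%), and they included all 24 called without it. The balance of directions depended on the scaling, since with spike-in totals and the block 23 arms were higher and 31 lower. The 62 arms called with TMM factors and the block were 42 star arms that rose and 2 that fell, mir-1_5p* and mir-34_5p*, and 2 guides that rose and 16 that fell. mir-34_5p* is the majority arm of its hairpin, with 89.6% of the counts in wild-type embryos. Its counts in replicate 2 were 608 in double AEDH and 1063 in wild-type embryos, against 107 to 131 and 126 to 175 in the other libraries. Without replicate 2 the blocked fit called 43 arms, 33 higher and 10 lower, 23 of which are among the 24.

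mir-72_3p* had the highest log2 fold change of all arms tested. Its hairpin lies outside protein-coding genes (chromosome II, 2452854 to 2452919, plus strand, ce11 build). It stood at 206, 204, 267 and 280 CPM in double AEDH embryos, against 37.5, 38.8, 58.3 and 55.5 CPM in wild-type embryos. Every double AEDH library exceeded every wild-type library by a wide margin, and replicates 3 and 4 were the higher ones in both genotypes. The log2 fold change was 2.33 ± 0.20 (SE, edgeR adjusted p = 8.7e-05). Its guide, mir-72_5p, was 1 of the 7 guides that fell, at 17273 ± 950 CPM in double AEDH embryos and 20711 ± 543 CPM in wild-type embryos (SD, n = 4 each). Its log2 fold change of -0.26 ± 0.07 (SE) had an edgeR adjusted p of 0.0421, and the call was lost when any 1 library was left out (adjusted p up to 0.108).

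mir-54_5p* was the most abundant of the star arms that rose. It comes from the mir-51 family, miRNAs with shared roles in embryonic development, and its hairpin is in a cluster with mir-55 and mir-56, antisense within an intron of F09A5.3 (chromosome X, 13145011 to 13145076, minus strand). The 4 double AEDH libraries had 2358, 2903, 4265 and 5084 CPM, and the 4 wild-type libraries had 601, 743, 1211 and 1227 CPM. Both groups spread about equally on a log scale, with replicates 3 and 4 above replicates 1 and 2 in each, and the lowest double AEDH library was still above the highest wild-type one. The log2 fold change was 1.95 ± 0.31 (SE, edgeR adjusted p = 0.0031). Its guide mir-54_3p did not pass without the block (log2 fold change -0.33 ± 0.13, edgeR adjusted p = 0.182) and was lower with it (adjusted p = 0.000645).

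mir-67_5p*, whose hairpin lies in an intron of zmp-1 (chromosome III, 5931364 to 5931428, minus strand), had 207, 265, 352 and 382 CPM in double AEDH embryos, against 52.4, 81.1, 114 and 105 CPM in wild-type embryos. The groups were well apart, with replicate 1 the lowest in both. The log2 fold change was 1.78 ± 0.28 (SE, edgeR adjusted p = 0.0031), while the guide mir-67_3p stood at 28.6 ± 2.50 CPM in double AEDH embryos and 29.1 ± 2.70 CPM in wild-type embryos (SD, n = 4 each).

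mir-70_5p*, from an intron of the transporter gene pmp-5 (chromosome V, 6665552 to 6665611, minus strand), had 41.7, 42.7, 33.9 and 31.8 CPM in double AEDH embryos, against 11.3, 12.4, 10.5 and 9.98 CPM in wild-type embryos. Here replicates 1 and 2 were the higher ones, and both groups were tight. The log2 fold change was 1.77 ± 0.15 (SE, edgeR adjusted p = 8.7e-05). The guide mir-70_3p had a log2 fold change of 0.01 ± 0.20.

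mir-57 is known for a role in posterior cell fate, and its hairpin lies outside protein-coding genes (chromosome II, 7850522 to 7850582, minus strand). mir-57_3p* had 176, 172, 242 and 251 CPM in double AEDH embryos, against 57.1, 54.9, 80.1 and 70.7 CPM in wild-type embryos, with no overlap (log2 fold change 1.68 ± 0.19, edgeR adjusted p = 0.000389). mir-80 belongs to the mir-58 family, which is related to bantam of flies. mir-80_5p* had 192, 257, 344 and 358 CPM in double AEDH embryos, against 71.0, 87.8, 107 and 99.9 CPM in wild-type embryos (log2 fold change 1.65 ± 0.22, edgeR adjusted p = 0.00135). In both arms replicates 3 and 4 were high in double AEDH embryos, and in neither did the guide pass.

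mir-49_5p* was an abundant star arm with little spread. It had 992, 939, 1123 and 1126 CPM in double AEDH embryos, against 399, 365, 440 and 366 CPM in wild-type embryos, from a hairpin outside protein-coding genes (chromosome X, 9989302 to 9989363, plus strand). The libraries of each genotype were close to one another and far from those of the other genotype (log2 fold change 1.41 ± 0.11, edgeR adjusted p = 8.7e-05). mir-63_5p* (chromosome X, 17598785 to 17598849, minus strand) had 102, 111, 107 and 105 CPM in double AEDH embryos, against 48.6, 42.5, 37.9 and 54.2 CPM in wild-type embryos (log2 fold change 1.21 ± 0.14, edgeR adjusted p = 0.000389).

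**Figure D2:**
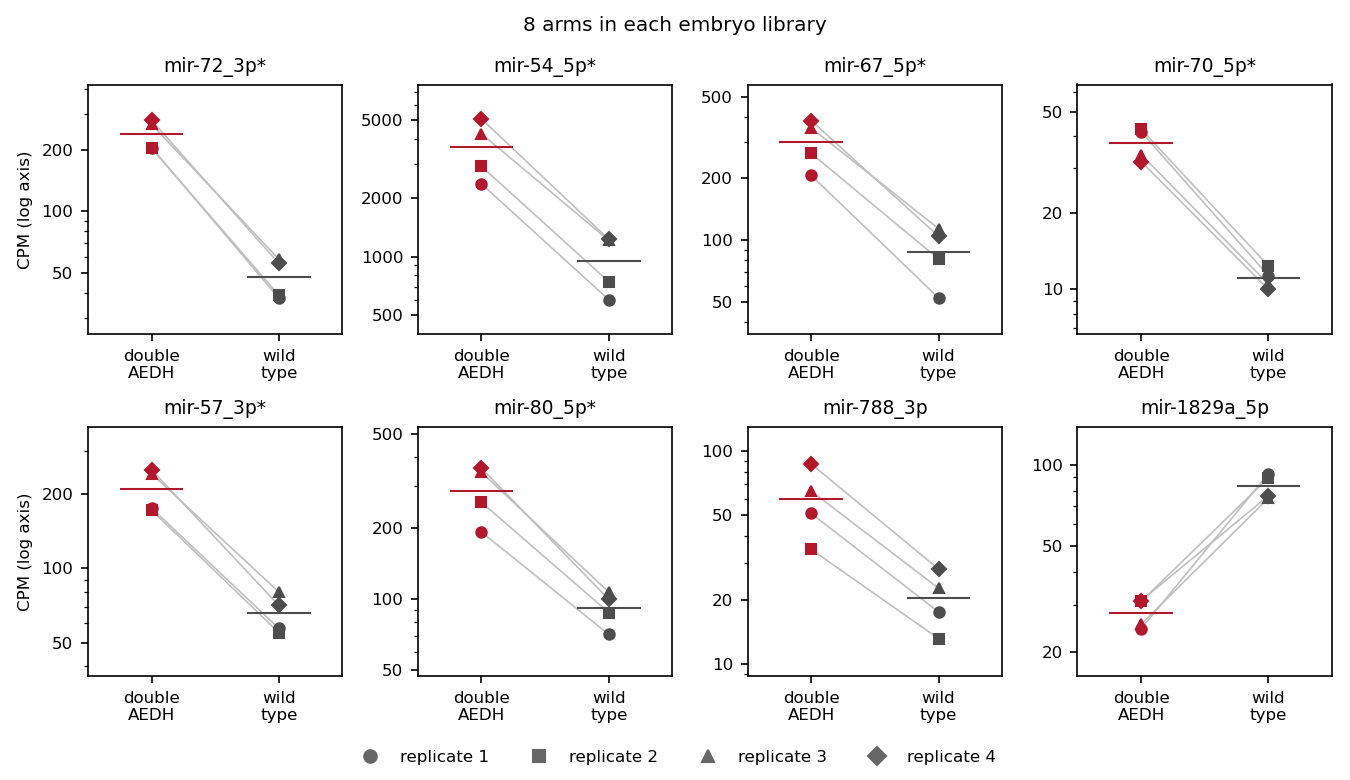
CPM on log axes of 6 star arms that rose (mir-72_3p*, mir-54_5p*, mir-67_5p*, mir-70_5p*, mir-57_3p* and mir-80_5p*), the guide mir-788_3p that rose and the guide mir-1829a_5p that fell, in each embryo library. Points are libraries, grey lines join the same replicate number, and short lines are group means. In every panel the 4 double AEDH libraries and the 4 wild-type libraries do not overlap.

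The other star arms that passed were smaller changes or less abundant arms. mir-233_5p* (28.2 ± 2.76 CPM in double AEDH embryos and 13.3 ± 2.68 CPM in wild-type embryos) and mir-42_5p* (451 ± 64.8 CPM and 261 ± 18.9 CPM in the same order) passed with every library left out in turn, as did the 8 star arms described above (SD, n = 4 each). With spike-in totals these 2 were not called, while those 8 were. mir-51_3p*, mir-250_5p*, mir-38_5p* and mir-46_5p* had log2 fold changes of 1.16, 0.86, 0.63 and 0.53, and each lost its call in 4 to 7 of the 8 fits that left out 1 library. Low counts marked the 2 remaining star arms, mir-795_3p* at 4.13 ± 1.09 CPM in double AEDH embryos and 1.34 ± 0.511 CPM in wild-type embryos, and mir-796_3p* at 1.69 ± 0.445 CPM in double AEDH embryos and 0.391 ± 0.242 CPM in wild-type embryos (SD, n = 4 each). Against them, a floor of 3 counts was 0.193 to 0.261 CPM in these libraries, and mir-796_3p* had counts of 8, 2, 3 and 8 in the wild-type libraries, at or below the floor in replicates 2 and 3. Each of these 2 lost its call without wild-type replicate 3 (edgeR adjusted p = 0.0526 and 0.0604).

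The largest change of a guide arm was a fall. mir-1829a_5p, from an intron of gas-1, which encodes a subunit of mitochondrial complex I (chromosome X, 15588311 to 15588370, minus strand), had 24.5, 30.9, 25.4 and 31.1 CPM in double AEDH embryos, against 92.7, 89.5, 75.1 and 76.7 CPM in wild-type embryos. All double AEDH libraries lay far below all wild-type libraries, and the libraries of each genotype were close to one another. The log2 fold change was -1.58 ± 0.14 (SE, edgeR adjusted p = 9.43e-05). The star arm of the same hairpin, mir-1829a_3p*, stood at 71.9 ± 5.97 CPM in double AEDH embryos and 73.1 ± 13.1 CPM in wild-type embryos (SD, n = 4 each; 95% interval of the log2 fold change -0.38 to 0.33).

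mir-788_3p was the guide that rose. It had 51.1, 34.6, 65.1 and 87.3 CPM in double AEDH embryos, against 17.6, 13.2, 22.8 and 28.0 CPM in wild-type embryos, and its hairpin lies outside protein-coding genes (chromosome X, 8485301 to 8485362, minus strand), listed at 2 places in the annotation. Replicate 4 was the highest and replicate 2 the lowest of each genotype, and the groups did not overlap. The log2 fold change was 1.54 ± 0.32 (SE, edgeR adjusted p = 0.0169; 0.0543 without double AEDH replicate 3). The annotated star mir-788_5p* stood at 52.6 ± 15.4 CPM in double AEDH embryos and 57.8 ± 14.2 CPM in wild-type embryos (SD, n = 4 each).

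Guides that fell by less were mir-1821_3p (log2 fold change -0.79), mir-796_5p (-0.69), mir-243_3p (-0.64), mir-789-1_5p (-0.60), mir-65_5p (-0.47) and mir-72_5p (-0.26). mir-243, known to load the Argonaute RDE-1 as well, had 60.1, 58.3, 61.0 and 59.0 CPM of its guide in double AEDH embryos, against 125, 85.0, 87.9 and 73.0 CPM in wild-type embryos. The double AEDH libraries were nearly alike and all below the wild-type ones, which spread widely, with replicate 1 the highest. The edgeR adjusted p was 0.0458, and it was not under the threshold in 7 of the 8 fits that left out 1 library (up to 0.123). mir-65_5p, the most abundant of these after mir-72_5p, came from a cluster in an intron of gcn-1 (chromosome III, 2173019 to 2173080, plus strand). It averaged 9984 ± 1016 CPM in double AEDH embryos and 13813 ± 2312 CPM in wild-type embryos (SD, n = 4 each; edgeR adjusted p = 0.0472, up to 0.148 with 1 library left out). mir-789-1 has a near-identical copy, mir-789-2, so that its counts are uncertain.

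The star-to-guide ratio compares both arms within a hairpin and library and so does not depend on how libraries are scaled. Of 86 hairpins tested, 17 passed (19.8%; limma, adjusted p under 0.05), 16 shifted toward the star arm (18.6%) and mir-788 away from its annotated star (1.16%). With the replicate block 49 hairpins passed (57.0%), 45 toward the star (52.3%) and 4 away from it (4.65%), and all 17 were among them. Without replicate 2 the blocked fit called 34, 33 toward the star. The groups did not overlap in 22 hairpins with higher ratios in double AEDH embryos (25.6%) and in 2 with lower ratios (2.33%). All 4 replicate pairs were above 0 in 47 hairpins and below 0 in 6, and the median shift over all hairpins was 0.52 on the log2 scale. In 10 of the 17 the star arm alone had passed the arm test, in 4 the guide arm alone (mir-1829a, mir-788, mir-1821 and mir-65), in 2 both arms (mir-72 and mir-796) and in mir-230 neither.

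Star shares, the percent of a hairpin's counts in its star arm, show how far these shifts went. For mir-54 the share was 29.9, 39.6, 42.1 and 51.0% in double AEDH embryos, against 7.75, 11.7, 14.03 and 17.5% in wild-type embryos. The star arm thus went past the guide in 1 double AEDH library and in no wild-type library. For mir-63 it was 30.6, 31.2, 32.6 and 30.6% in double AEDH embryos, against 15.5, 13.8, 14.5 and 15.0% in wild-type embryos, with less spread within a group than in any other of the 17 hairpins relative to the gap between the groups. mir-72 remained a hairpin dominated by its guide, with a star share of 1.26, 1.10, 1.50 and 1.60% in double AEDH embryos, against 0.183, 0.191, 0.281 and 0.258% in wild-type embryos (log2 shift 2.61 ± 0.24, limma adjusted p = 0.000107). The log2 shift was 2.27 ± 0.36 for mir-54 (limma adjusted p = 0.00119) and 1.40 ± 0.18 for mir-63 (0.000641).

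In 12 of the 86 hairpins the annotated star held over 50% of the counts in wild-type embryos, and 2 of them passed, in opposite directions, beside 17 of 86 over all hairpins. mir-67 had a star share of 86.5, 90.5, 92.7 and 93.5% in double AEDH embryos, against 63.6, 71.9, 79.5 and 80.5% in wild-type embryos. The arm in excess was the one that gained there, as a log2 shift of 1.82 ± 0.37 (limma adjusted p = 0.00536). mir-788 had a star share of 54.4, 46.1, 47.5 and 41.1% in double AEDH embryos, against 79.5, 75.3, 69.6 and 71.5% in wild-type embryos. Here the arm in excess lost share, and in 3 of the 4 double AEDH libraries it was no longer the majority (log2 shift -1.68 ± 0.26, limma adjusted p = 0.000959).

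**Figure D3:**
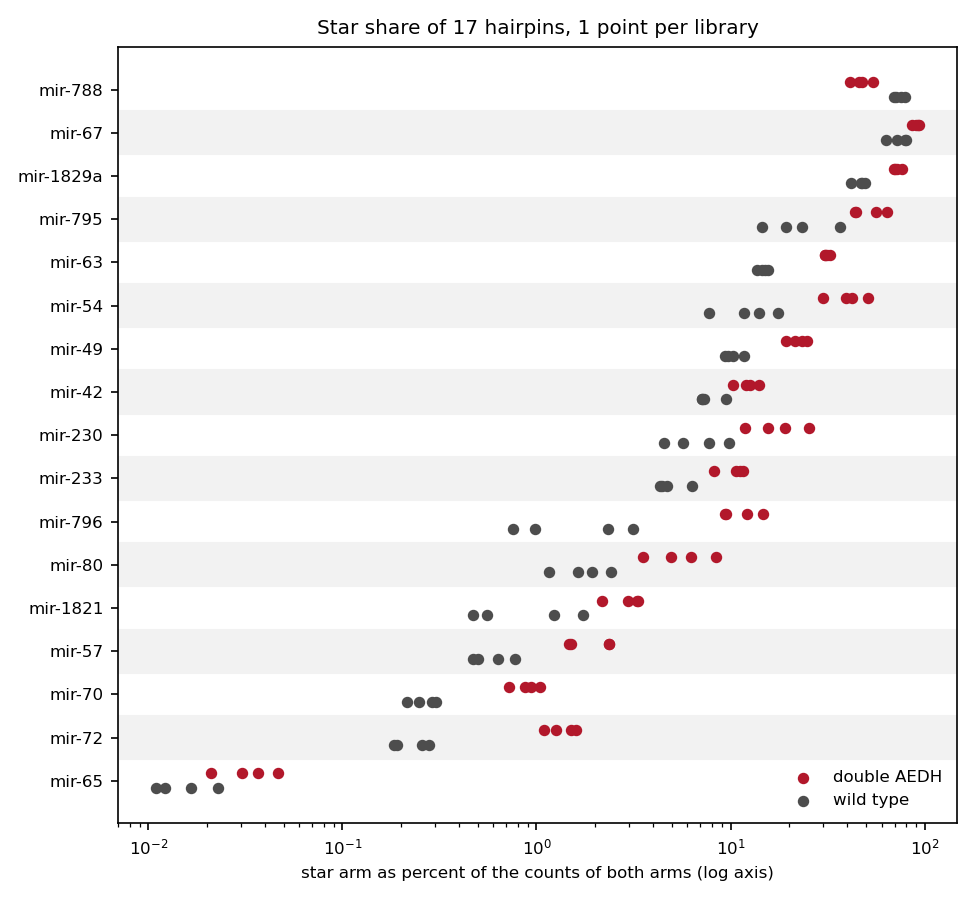
Star arm as percent of the counts of both arms (horizontal log axis) for the 17 hairpins that passed the ratio test, with 1 point per library, double AEDH above wild type in each row. Shares are higher in double AEDH embryos in 16 hairpins and lower in mir-788, and the groups overlap in mir-65 alone.

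The remaining hairpins that passed ranged from near-total guide dominance to a star majority. mir-1829a had a star share of 76.2, 69.2, 71.8 and 70.6% in double AEDH embryos, against 47.1, 47.9, 49.3 and 41.6% in wild-type embryos. Its star arm thus held the majority in every double AEDH library and in no wild-type library (log2 shift 1.57 ± 0.21, limma adjusted p = 0.000654). mir-65 had star shares of 0.0336% ± 0.0106 in double AEDH embryos and 0.0157% ± 0.00533 in wild-type embryos, and mir-795, a let-7 family hairpin, had 52.1% ± 9.81 in double AEDH embryos and 23.4% ± 9.52 in wild-type embryos (SD, n = 4 each). mir-796 shifted most, by 2.87 ± 0.42 on the log2 scale, to 11.4% ± 2.51 in double AEDH embryos, against 1.81% ± 1.14 in wild-type embryos, at the low counts given above. mir-230 has no annotated star, and its arm of lower count rose to 18.0% ± 5.82 in double AEDH embryos, against 6.97% ± 2.34 in wild-type embryos. All 17 kept their side of the threshold with each library left out in turn, except mir-42 and mir-65, which each passed in 2 of 8 such fits. With a mean count of at least 50 required of each arm, 16 of 65 hairpins passed, and 12 of them were among the 17. There mir-796, mir-795, mir-230, mir-1821 and mir-65 had too few star counts to be tested.

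The mir-35 family shows the contrast between the arms over 8 hairpins. In mir-41 the annotated star was the majority arm, with a share of 82.7% in double AEDH embryos and 78.0% in wild-type embryos. None of its 8 guides passed, with or without the block, and their log2 fold changes lay between -0.15 and 0.11 (median -0.06). All 8 star arms were above 0, between 0.43 and 0.79 (median 0.56), and 2 passed, mir-42_5p* and mir-38_5p*, beside 16 of 85 over all star arms. With the block all 8 rose, beside 42 of 85. Their summed level was 3367, 4458, 4388 and 5797 CPM in double AEDH embryos, against 2557, 3446, 2978 and 3315 CPM in wild-type embryos, so the groups overlap through replicate 1. mir-39_5p*, which passed with the block alone (edgeR adjusted p = 0.000162, against 0.0518 without), stood at 1175 ± 269 CPM in double AEDH embryos and 748 ± 112 CPM in wild-type embryos (SD, n = 4 each).

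In the other families the share of star arms that passed was read against 16 of 85 over all star arms tested, or 42 of 85 with the block, and no family count is taken as different from these. In the mir-51 family none of 6 guides and 2 of 6 star arms passed, mir-54_5p* and mir-51_3p*, with a median of 0.53 over the star arms and -0.03 over the guides. mir-52_3p* and mir-53_3p* of the same family had log2 fold changes of -0.04 ± 0.21 and -0.08 ± 0.44, and with the block 3 of the 6 star arms rose and 1 guide, mir-54_3p, fell. In the mir-58 family none of 4 guides and 1 of 4 star arms (mir-80_5p*) passed, with medians of -0.02 and 0.64, and 3 star arms rose with the block. The mir-2 family had 1 of 4 star arms that passed, mir-250_5p*, and the mir-44 family had none of 3, with 2 star arms that rose and 1 guide, mir-247_3p, that fell with the block. Counts of mir-44_3p and mir-45_3p are uncertain, because they belong to the same family and their reads may not be told apart. Their sequences were not compared here. Among the related hairpins mir-63, mir-64, mir-65, mir-66 and mir-229, 1 of 5 star arms rose (mir-63_5p*) and 1 of 5 guides fell (mir-65_5p). The let-7 family, which times larval development, had 6 guides tested, none of which passed (median -0.28; with the block mir-241_5p fell), and 1 of 3 star arms rose (mir-795_3p*).

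**Figure D4:**
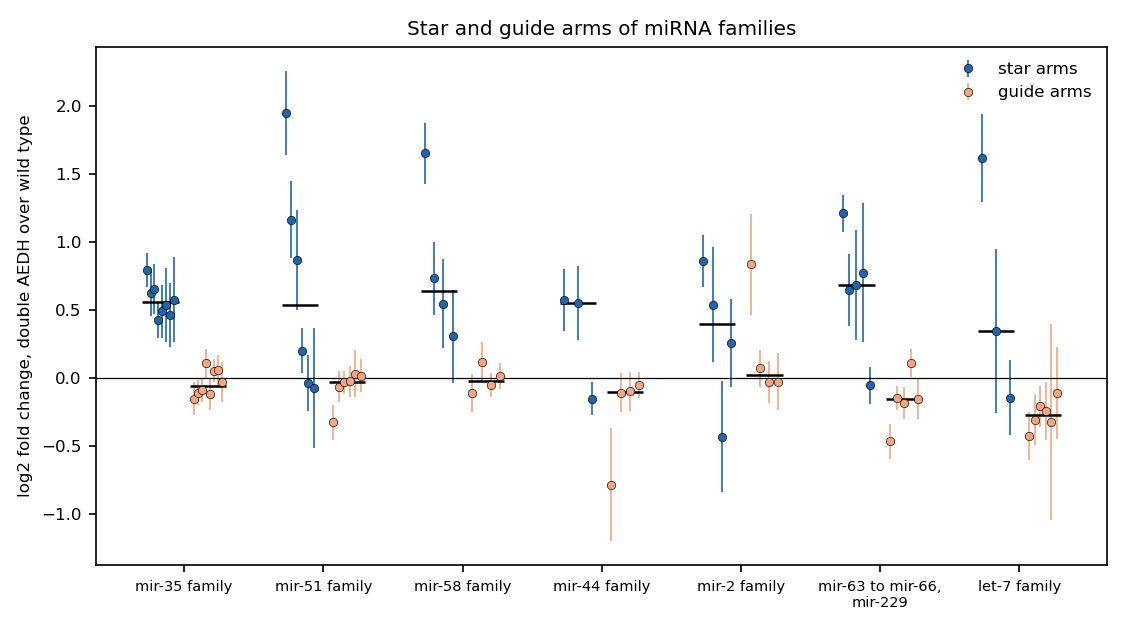
Log2 fold change of double AEDH over wild-type embryos for each tested star arm (blue) and guide arm (orange) of 7 groups of related miRNAs, with SE bars and the median of each set as a black line. Star arm medians lie above the guide medians in all 7 groups, and single star arms such as mir-52_3p* and mir-53_3p* of the mir-51 family lie near 0.

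Position and level of the hairpin were set beside the star arms as descriptions. Of 28 star arms on the 3p side 5 passed (median log2 fold change 0.34), and of 57 on the 5p side 11 passed (median 0.49). Among star arms of clustered hairpins 7 of 39 passed (median 0.57), and among those of single hairpins 9 of 46 (median 0.31). Within protein-coding genes 5 of 36 passed (median 0.45), and outside them 11 of 49 (median 0.42). Of the 42 star arms above the median star level 12 passed, and of the 43 at or below it 4 passed, beside 16 of 85 over all star arms. The level was the mean over the libraries of both genotypes, so a rise in double AEDH embryos also raised the level of an arm. The difference between these sets was not tested.

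All star arms together made up 1.36, 1.66, 2.34 and 2.64% of miRNA counts in double AEDH embryos, against 0.831, 1.11, 1.31 and 1.46% in wild-type embryos. In every replicate pair the double AEDH library was the higher, but double AEDH replicate 1 lay below wild-type replicate 4, so the groups overlap. The means were 2.00% ± 0.592 in double AEDH embryos and 1.18% ± 0.274 in wild-type embryos (SD, n = 4 each), 0.821 percentage points apart, and 0.543 points apart without mir-54. Some annotated stars are majority arms, and with the arm of lower wild-type embryo mean taken as the star throughout, the means were 0.715 points apart. mir-54_5p* alone gave 34.4% of the summed CPM difference, mir-44_5p* 11.1% and mir-49_5p* 8.30%. The 8 star arms of the mir-35 family gave 18.2%. mir-44_5p* had 1762, 2263, 3017 and 3618 CPM in double AEDH embryos, against 1333, 1800, 2032 and 2019 CPM in wild-type embryos. It was higher in each pair but overlapped between the groups, and it passed with the block alone (log2 fold change 0.54 ± 0.08, edgeR adjusted p = 0.00024).

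Star levels varied between replicate numbers as well as between genotypes. The median over hairpins of the log2 ratio, centred per hairpin, was -0.18, 0.17, 0.44 and 0.77 in double AEDH embryos, against -0.61, -0.31, -0.13 and -0.01 in wild-type embryos. Replicates 3 and 4 were above replicates 1 and 2 in both genotypes. Within each pair the double AEDH library was higher, by 0.43, 0.48, 0.57 and 0.78. Among the arms that rose with the block alone, mir-228_3p*, from a hairpin known for expression in glia, had 152, 258, 322 and 444 CPM in double AEDH embryos, against 83.2, 118, 150 and 198 CPM in wild-type embryos. The groups overlap, while all 4 pairs point the same way (log2 fold change 1.07 ± 0.09 with the block, edgeR adjusted p = 6.99e-07; 0.0879 without it). mir-231_5p* behaved alike, at 250 ± 92.6 CPM in double AEDH embryos and 139 ± 33.1 CPM in wild-type embryos (SD, n = 4 each; edgeR adjusted p = 2.31e-05 with the block and 0.0901 without it).

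Some hairpins did not shift measurably, and they include ones with much star RNA. They were chosen after their values were seen, as hairpins whose pairs pointed both ways and whose 95% interval of the log2 shift lay between -1 and 1, and 17 hairpins met this. mir-124, a miRNA of neurons, had a star share of 34.3% in double AEDH embryos and 34.0% in wild-type embryos (interval of the shift -0.83 to 0.82). mir-77 had 16.8% in double AEDH embryos and 17.2% in wild-type embryos (interval -0.50 to 0.42), and mir-61 had 0.739% in double AEDH embryos and 0.789% in wild-type embryos (interval -0.53 to 0.33). The intervals for mir-77 and mir-61 do not reach the median shift of 0.52, while that for mir-124 does.

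The double AEDH effect was also set against that at other stages of experiment 1, young adults and L4 larvae, by a test of the difference itself. The young adults were kept at a higher temperature than the embryos, so stage and culture temperature cannot be told apart in their difference. The L4 larvae were kept at the same temperature as the embryos. Against young adults 2 of 231 arms differed (0.866%). mir-788_3p stood at 75.2 ± 15.6 CPM in double AEDH young adults and 138 ± 33.6 CPM in wild-type young adults (SD, n = 4 each; log2 fold change -0.88 ± 0.23), where the embryos had a rise of 1.54. The difference was 2.33 ± 0.43 on the log2 scale (edgeR adjusted p = 0.013), while the median difference over all arms was -0.16, and 0.00167 to 0.13 in the fits that left out 1 embryo library. mir-795_3p* differed by 1.84 ± 0.39 (edgeR adjusted p = 0.0247). It stood at 25.1 ± 4.41 CPM in double AEDH young adults and 32.1 ± 5.69 CPM in wild-type young adults (SD, n = 4 each). With spike-in totals as library sizes no arm differed, and with the replicate block 8 did (3.46%).

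By star-to-guide ratio 4 of 95 hairpins differed between embryos and young adults (4.21%), and 19 with the block (20.0%). Of the embryo libraries, leaving out replicate 3 of double AEDH gave 2 and replicate 1 of wild type gave 1. The shift of mir-72 was 1.34 ± 0.33 larger in embryos (limma adjusted p = 0.0251) and that of mir-795 1.86 ± 0.49 larger (0.0385). mir-72 still shifted within L4 larvae (1.42 ± 0.33, limma adjusted p = 0.0313) and within young adults (1.27 ± 0.19, 0.00244). Of the other hairpins called in embryos, mir-63, mir-1829a and mir-230 also passed at both stages without the block, and mir-54 in L4 larvae alone. The rest passed at neither stage or, as mir-796 and mir-1821, were not tested there. For mir-788 the difference was -2.21 ± 0.32 (limma adjusted p = 0.000245), as its star share was 14.4% ± 2.18 in double AEDH young adults and 10.4% ± 1.19 in wild-type young adults (SD, n = 4 each), the opposite order to embryos. For mir-243 it was -2.57 ± 0.60 (limma adjusted p = 0.0251), but mir-243_5p had only 0.306 ± 0.259 CPM in double AEDH embryos and 1.12 ± 0.462 CPM in wild-type embryos (SD, n = 4 each), and the hairpin had too few counts for the test within embryos. Against L4 larvae 1 of 236 arms differed (0.424%). mir-70_5p*, at 98.0 ± 12.95 CPM in double AEDH larvae and 62.7 ± 7.02 CPM in wild-type larvae (SD, n = 3 each), rose by 1.23 ± 0.24 less than in embryos on the log2 scale (edgeR adjusted p = 0.0416). This call was lost with DESeq2 size factors, with spike-in totals and in 6 of the 8 fits that left out 1 embryo library, all but those without replicate 4 of double AEDH or replicate 2 of wild type. With the block 29 arms differed (12.3%), all with a log2 fold change that was higher in embryos than in larvae. No hairpin ratio differed from L4 larvae by limma without the block, and 12 of 95 did with it (12.6%).

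Embryos with AEDH in ALG-2 alone or in ALG-1 alone were sequenced in experiment 3 and share 1 set of 4 wild-type libraries, so their values are given side by side. mir-72_3p* had log2 fold changes of 2.33 ± 0.20 in double AEDH, 0.77 ± 0.22 in alg-2(AEDH) and 0.78 ± 0.28 in alg-1(AEDH) embryos. mir-54_5p* had 1.95 ± 0.31, 1.18 ± 0.16 and 0.43 ± 0.17 in the same order, mir-49_5p* had 1.41 ± 0.11, 1.32 ± 0.17 and 0.45 ± 0.17, and mir-67_5p* had 1.78 ± 0.28, 1.37 ± 0.16 and 0.56 ± 0.15. mir-788_3p had 1.54 ± 0.32 in double AEDH, 0.24 ± 0.22 in alg-2(AEDH) and 1.11 ± 0.19 in alg-1(AEDH) embryos. The difference between the single mutants was not tested. The level of mir-788_3p was 120 ± 10.3 CPM in alg-1(AEDH) embryos and 55.6 ± 11.9 CPM in their wild type (SD, n = 4 each). It was the only one of these 5 arms that passed in alg-1(AEDH) embryos (edgeR adjusted p = 0.0323), and the only one of the 195 tested there (0.513%). By star-to-guide ratio mir-72, mir-54, mir-49 and mir-67 passed in alg-2(AEDH) embryos (limma adjusted p = 0.00736, 0.000327, 0.000327 and 6.78e-05), and mir-788 did not (0.142). In alg-1(AEDH) embryos mir-788 alone of these 5 hairpins passed (limma adjusted p = 0.00405). All 5 were taken from those called in double AEDH embryos, and hairpins outside these 5 passed as well. Among them, mir-63 passed in alg-2(AEDH) and in alg-1(AEDH) embryos (limma adjusted p = 0.0157 and 0.00947). In alg-1(AEDH) embryos mir-75 passed too (limma adjusted p = 0.00405), so the change there was not limited to mir-788.

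The difference between the double AEDH and the alg-2(AEDH) effect was tested, each against the wild type of its own experiment, so that genotype and experiment cannot be told apart in it. Of 214 arms 2 differed (0.935%). mir-72_3p* rose by 1.36 ± 0.31 more in double AEDH embryos, and mir-1829a_5p differed by -1.19 ± 0.25, a deeper fall in double AEDH embryos (edgeR adjusted p = 0.0233 for each). mir-72_3p* stood at 112 ± 15.4 CPM in alg-2(AEDH) embryos and 65.5 ± 19.2 CPM in their wild type, and mir-1829a_5p at 94.5 ± 13.7 CPM in alg-2(AEDH) embryos and 141 ± 27.3 CPM in their wild type (SD, n = 4 each). Neither call held in the fits that left out replicate 3 or 4 of double AEDH embryos or replicate 1 of wild-type embryos, 1 held without replicate 2 of wild-type embryos, and with the block 7 arms differed (3.27%). Of 80 hairpin ratios mir-72 alone differed (1.25%), by 1.56 ± 0.34 (limma adjusted p = 0.0215), also with the block, but in none of the 4 fits that left out 1 of those libraries.

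**Figure D5:**
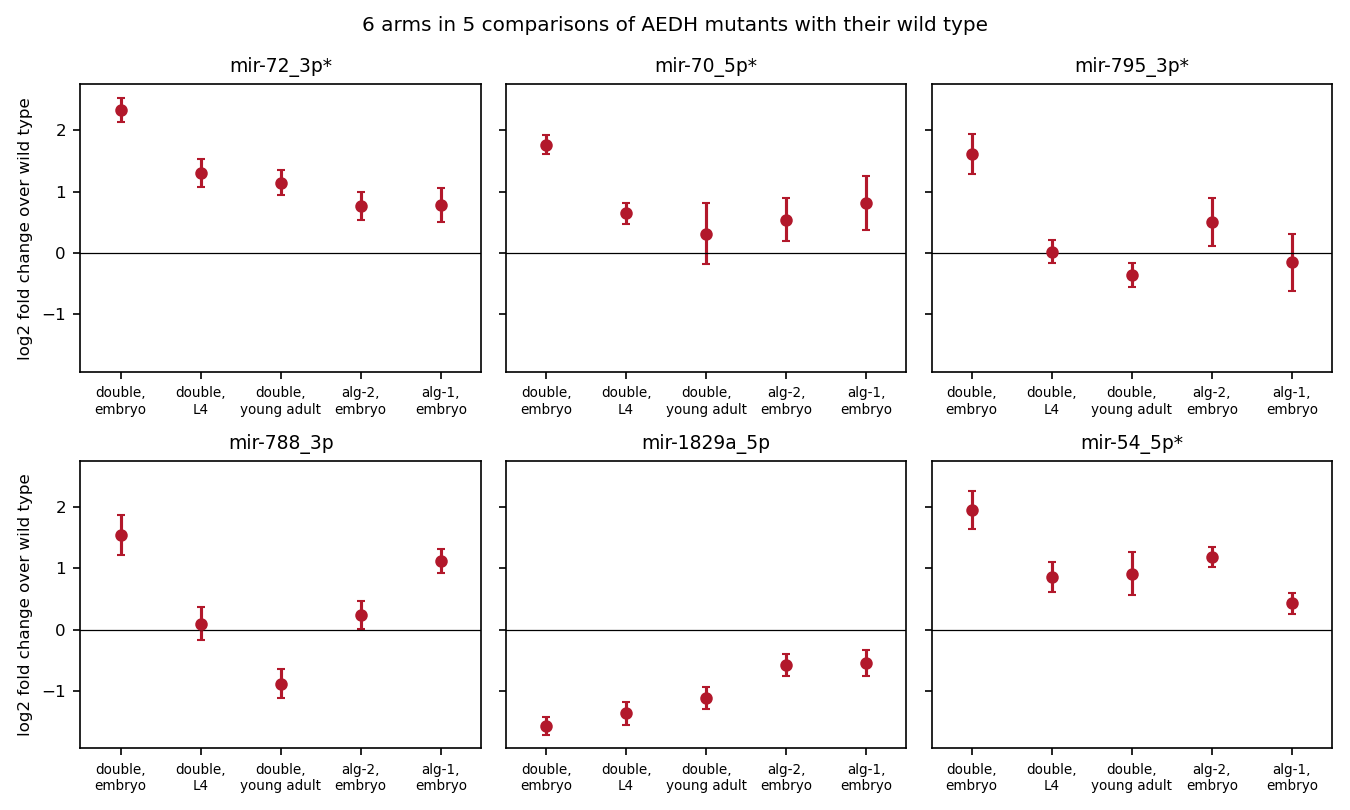
Log2 fold change over the wild type of the same experiment and stage, with SE bars, for 6 arms in 5 comparisons: double AEDH in embryos, L4 larvae and young adults, and alg-2(AEDH) and alg-1(AEDH) in embryos. The embryo value of the double mutant is the highest for the 4 star arms and for mir-788_3p and the lowest for mir-1829a_5p, and the 2 single mutants share their wild-type libraries.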

How the data were processed

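The deposited table gives raw estimated counts for 276 arms (138 hairpins), for 10 spike-in RNAs and for 5 summary categories. Of its values, 278 in the 8 embryo libraries (12.6%) ended in 0.5 and were rounded to whole numbers. Per the submitters' processing notes the tools were Bowtie2 2.4.4 and HTSeq 0.13.5, along with SAMtools 1.13, cutadapt 3.4 and also DESeq2. How reads were assigned to arms is not given in the sources used here. Per the labels' protocols, libraries were made by ligation, with reverse transcription products selected by size on gels. Arms, star marks and positions come from the deposited annotation, MirGeneDB 2.0 on ce11 per the file headers, and host genes from the WBcel235 annotation. In 6 hairpins without a star mark the arm of lower wild-type embryo mean was taken as the star.

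Spike-ins (1182076 to 1932918 counts per embryo library) and summary categories stayed out of library sizes and tests. Reads outside annotated features averaged 15.2% ± 1.77 in double AEDH embryos and 16.3% ± 1.82 in wild-type embryos (SD, n = 4 each), and 242 to 249 arms had a count per library. Without molecular identifiers, the floor of 3 counts covers counting error only. All replicate libraries differed by more than sampling noise. miRNA counts per spike-in count were 7.97 ± 1.33 in double AEDH embryos and 9.50 ± 1.84 in wild-type embryos (SD, n = 4 each).

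Arms were tested in R 4.3.3 with edgeR 4.0.16 (quasi-likelihood test, robust, TMM, filterByExpr with a minimum count of 10), and 64 arms were not tested. Ratios were log2 of star over guide count with 0.5 added to each, where each arm averaged 10 counts or more. They were fitted with limma 3.58.1 using its trend and robust options, and 52 hairpins were not tested. P-values were adjusted by Benjamini-Hochberg over all features tested, with a threshold of 0.05. Same-numbered libraries deviated from their group means together, with correlations across arms of 0.72, 0.82, 0.72 and 0.64 for replicates 1 to 4, so the numbers were taken as pairs, and fits with this block are given beside counts that it changes. The other alternatives were DESeq2 1.42.0 and its size factors, total counts, spike-in totals, TMM from guide arms, other minima and added counts, and each library left out. The tests were run on simulated counts with known changes and the same dispersion for all arms. Where simulated pairs shared deviations, no minimum recovery was required of the fit without the block. Error rates in the real libraries are therefore not measured by this check.

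The members, lists and tests were chosen with earlier results of these data known. Named are all arms and hairpins that passed in the main or a difference test, mir-243, up to 10 of each of largest change among those passed with the block alone, and members of lowest p of the lists; others are named for a family or as chosen after their values were seen. mir-793 and mir-1834 of the let-7 and mir-58 lists are not among the arms. Predicted duplex pairing, first bases, seeds and sequences were not analysed here.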

Additional observations from a re-analysis of the deposited data

Results flagged for a closer look

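Values far from the other 3 of their group were looked for in 166 groups of 4 libraries, of which chance gives 1 in 20, or 8.3, and 13 were found. Replicate 2 held 7 of them: mir-237 at 59.8 CPM in double AEDH embryos and 96.5 CPM in wild-type embryos, lin-4_5p at 93.7 CPM in double AEDH embryos and 169 CPM in wild-type embryos, and in wild-type embryos also mir-230_3p at 20.7 CPM, mir-797_5p* at 4.69 CPM and mir-789-1_5p at 4.53 CPM, which was the lowest of its group. In wild-type replicate 3, mir-233_5p* was high at 17.4 CPM and mir-797_3p low at 0.486 CPM. Wild-type replicate 4 had high star shares of mir-42 (9.47%) and mir-66 (0.0404%), and wild-type replicate 1 low star shares of mir-75 (7.41%) and mir-51 (0.0736%).

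The double AEDH effect differed by a direct test in 10 cases. In those against young adults, stage and culture temperature cannot be told apart. Embryos differed from young adults by 2.33 for mir-788_3p, 1.84 for mir-795_3p*, and in the star-to-guide ratio by -2.21 for mir-788, -2.57 for mir-243, 1.34 for mir-72 and 1.86 for mir-795, all on the log2 scale. They differed from L4 larvae by 1.23 for mir-70_5p*. Double AEDH embryos differed from alg-2(AEDH) embryos by -1.19 for mir-1829a_5p, 1.36 for mir-72_3p* and, as a ratio, 1.56 for mir-72.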

How the results depend on the processing

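With the replicate block the number of arms that passed between double AEDH and wild-type embryos was 62 in place of 24, that of hairpin ratios 49 in place of 17, and those of the differences from young adults 8 arms and 19 ratios, from L4 larvae 29 arms and 12 ratios, and from alg-2(AEDH) embryos 7 arms. Leaving out 1 replicate number in both groups, with the block, gave 59, 43, 53 and 78 arms and 56, 34, 38 and 42 ratios for replicates 1 to 4. Arms higher and lower in double AEDH embryos numbered 17 and 7 with TMM, 17 and 8 with DESeq2 size factors, 14 and 4 with total counts, 16 and 2 with TMM from guide arms and 11 and 1 with spike-in totals (12 in all), and 23 and 31 with spike-in totals and the block (54 in all). Spike-in totals moved the median of all arms to -0.24, beside -0.02 with TMM, and under them the guide falls other than that of mir-1829a_5p, and the rises of mir-233_5p*, mir-42_5p*, mir-250_5p*, mir-46_5p*, mir-51_3p* and mir-38_5p*, were not called. No called arm or hairpin changed its sign under any alternative run. DESeq2 itself called 33 arms, an unadjusted edgeR p under 0.05 was reached by 45, and without the filter 21 of 262 passed. Guide-arm TMM, and the block with spike-in totals or without 1 replicate number, were chosen after seeing the data.

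Leaving out 1 library in turn gave 12 to 32 arms (12 without wild-type replicate 3, 14 without double AEDH replicate 3 and 15 without double AEDH replicate 4), 15 to 23 ratios, and a star share difference of 0.606 to 1.03 percentage points; 11 of the 24 arms and 15 of the 17 hairpins passed in all 8 such fits. Differences from young adults were then 2 to 4 arms and 1 to 4 ratios, from L4 larvae 0 to 1 arms, and from alg-2(AEDH) embryos 0 to 2 arms and 0 to 2 ratios. With spike-in totals 0 arms differed from young adults and 0 from L4 larvae, and with DESeq2 size factors 0 from L4 larvae and 1 from alg-2(AEDH) embryos. Experiment 3 had too few spike-in counts for that scaling. Among arms not called in either fit, the log2 fold change ranged from -2.81 to 2.01 for lin-4_5p, from -1.40 to 0.61 for mir-237 and from -0.58 to 0.11 for mir-797_5p*, each highest without wild-type replicate 2, where lin-4_5p and mir-237 were high, and from -0.267 to 0.073 for mir-241_3p*, highest without wild-type replicate 1. Depth limits star arms of a few counts such as mir-796_3p*, and the cause of the other moves was not tested.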
